A study of Mus musculus with 8 samples.

Results

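Described here are 10 genes of the integrated stress response and of 2 hormones that stressed liver secretes, taken by symbol from a table of 24421 gene symbols. They are Atf4, Atf5, Ddit3, Trib3, Asns, Chac1, Psat1, Sesn2, Fgf21 and Gdf15. All 10 were found and all 10 had enough counts to be tested, among 12985 genes tested in all. Liver RNA came from C57BL/6N mice of 8 to 10 weeks of age, in 4 libraries labelled WT and 4 labelled CAPZ_KO. The CAPZ_KO animals were Albumin-CreERT2;Capzb-fl/fl mice injected with tamoxifen, which first received it at 4 to 6 weeks of age as 5 daily injections. The drug activates a Cre recombinase that the albumin promoter drives in hepatocytes, and the recombinase removes part of Capzb, which encodes an actin filament capping subunit. The WT group pooled 2 kinds of control, Capzb-fl/fl mice without Cre that were injected and Albumin-CreERT2;Capzb-fl/fl mice that were not. Since no label assigns the WT libraries to these kinds, the deletion and exposure to tamoxifen cannot be told apart in any comparison below. Floxed Capzb is shared by all 8 libraries. The labels do not state that each library is a separate animal, so a p-value here reflects sample-to-sample spread, which may be technical in part. Each group held libraries read as male and as female from their RNA, so the libraries of a group did not all come from the same animal.

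The integrated stress response begins when 1 of several kinases phosphorylates the translation factor eIF2. Overall protein synthesis then falls while the mRNA of the transcription factor ATF4 is translated more efficiently, so that ATF4 activity is set largely at the level of translation and not only by the amount of Atf4 mRNA. ATF4 acts together with related factors such as ATF5 and CHOP (the product of Ddit3) on genes of amino acid synthesis, amino acid transport and feedback. In liver the same response is one of the known inducers of the hormones FGF21 and GDF15, which act on metabolism and feeding through receptors in other tissues.

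Libraries held 12060350 to 18916315 counts in WT and 13122355 to 16984971 in CAPZ_KO. Capzb, the targeted gene, was at 140, 109, 118 and 114 CPM (counts per 1000000 counts, scaled by TMM) in WT and at 69.4, 79.6, 64.5 and 76.4 in CAPZ_KO, a log2 fold change of −0.73 (edgeR adjusted p = 0.00134). It was lower in every CAPZ_KO library, and its counts cover deleted and retained exons together. By edgeR's quasi-likelihood test with a threshold of 0.05 on the adjusted p, 41.4% of the tested genes were called, 22.4% as higher in CAPZ_KO and 19% as lower, and in 22.1% all 4 CAPZ_KO libraries lay above all 4 WT libraries. Higher genes made up 54.1% of the calls with TMM and 91.6% when libraries were scaled by their sizes alone, a scaling that moved the median gene by 0.625 on the log2 scale. The 10 hepatocyte markers summed to 173961 to 220199 CPM in WT and 43068 to 62774 in CAPZ_KO, with 9 of 10 lower. The summed levels of 8 cholangiocyte markers were 43.6 to 80.4 CPM in WT and 370 to 1093 in CAPZ_KO (5 higher), of 8 monocyte-derived macrophage markers 299 to 469 and 530 to 786 (6 higher), and of 8 stellate cell and fibroblast markers 318 to 385 and 829 to 1293 (8 higher). In the cholangiocyte sum, Spp1 alone stood at 30.2 ± 5.25 CPM in WT against 604 ± 321 (SD, n = 4), while the keratins Krt7 (−0.0054) and Krt19 (−0.23) were not called. Most of the macrophage sum came from Lyz2 and Cd9, named after their values were seen. Lyz2, which was not called, stood at 305 ± 82.1 CPM in WT against 482 ± 136 in CAPZ_KO (SD, n = 4). Cd9, which was called higher, stood at 27.8 ± 7.82 against 130 ± 27.7 (SD, n = 4). Kupffer cell markers reached 469 to 1334 CPM in WT and 987 to 3337 in CAPZ_KO (2 of 6 higher), and endothelial markers 247 to 408 and 321 to 499 (3 of 7 higher). Neutrophil markers stood at 6.32 to 29.8 and 24.4 to 44.8 CPM (2 of 5 higher), T and NK cell markers at 4.19 to 18.3 and 8.16 to 16.2 (0 of 6 called), and B cell markers at 2.34 to 12.9 and 2.66 to 13.1 (0 of 4 called). Of 6 erythroid markers, Alas2 alone was tested and was lower, and 4 globin genes had 0 counts in every library. How reads shared between genes were treated is not given, so these counts of 0 cannot be read as absence of globin RNA. In whole liver, fewer cells of a type and less RNA per cell cannot be told apart, and the part of other cell types in the values of the 10 genes was not tested. WT 4 and CAPZ_KO 4 were read as female from Xist and Y-linked genes, and the other libraries as male.

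ATF4 and its partners bind a composite DNA element, the C/EBP-ATF response element, whose core is written TGATGNAA. The core was searched on both strands in RefSeq windows from 250 bases before to 50 bases after each annotated start (GRCm38.p6), of which all 10 genes had at least 1. It was found for Asns, Chac1, Fgf21 and Trib3, 4 of the 10 genes, against 4.51% of 27025 genes with a window. Since the 10 genes were chosen as genes of this response, that comparison is not a test. The 4 matches are shown because they lie in 3 genes that were higher in CAPZ_KO and in Chac1, which was not. Each is read 5′ to 3′ on the strand that spells the core as searched, with 11 flanking bases on either side and the core in capitals.
Asns: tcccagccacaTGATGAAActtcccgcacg
Trib3: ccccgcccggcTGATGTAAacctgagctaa
Fgf21: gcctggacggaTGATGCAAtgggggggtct
Chac1: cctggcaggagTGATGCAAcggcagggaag
The Asns core (chr6:7693225-7693232) begins 23 bases before the RefSeq start and lies inside the first exon that GENCODE vM21 annotates. The Trib3 core (chr2:152344039-152344046) begins 14 bases after the RefSeq start, and GENCODE places the start farther downstream. The Fgf21 core (chr7:45615622-45615629) begins 139 bases before the start, and the Chac1 core (chr2:119351049-119351056) 193 bases before its RefSeq start. Fgf21 and Chac1 carry the same 8 letters, and the promoter stretches that hold them are given on the strand of the gene, where the core reads TTGCATCA (in capitals). The Fgf21 stretch is the 250 bases before the start on the minus strand (chr7:45615491-45615740), and the Chac1 stretch is the 237 bases before the first GENCODE exon on the plus strand (chr2:119350992-119351228).
Fgf21: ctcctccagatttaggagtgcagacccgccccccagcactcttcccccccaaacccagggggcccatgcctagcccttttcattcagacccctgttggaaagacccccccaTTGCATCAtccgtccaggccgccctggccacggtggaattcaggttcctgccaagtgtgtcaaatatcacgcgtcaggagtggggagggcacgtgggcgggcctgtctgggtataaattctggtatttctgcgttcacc
Chac1: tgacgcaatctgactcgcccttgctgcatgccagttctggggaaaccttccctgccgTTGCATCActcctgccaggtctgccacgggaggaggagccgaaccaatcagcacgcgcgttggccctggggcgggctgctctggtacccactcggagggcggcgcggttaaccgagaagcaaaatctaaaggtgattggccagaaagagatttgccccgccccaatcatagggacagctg
No window of the 10 genes held the cyclic AMP response element TGACGTCA, the endoplasmic reticulum stress element or the PPAR response element (a direct repeat with 1 base between), found in 2.03%, 0.137% and 0.0481% of genes with a window. So no core overlapped one of these. A match is a description of these letters in these windows only.

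Of the 10 genes, 7 were higher in CAPZ_KO, 0 were lower and 3 were not called. The genes that rose were Ddit3, Trib3, Asns, Psat1, Sesn2, Fgf21 and Gdf15, with log2 fold changes from 0.88 to 2.70. Atf4, Atf5 and Chac1 did not pass the test. Over all genes tested, 22.4% were called higher and 41.4% in either direction, and the median log2 fold change was 1.24 over the 10 genes and −0.0029 over all genes tested. In 5 of the 10, Ddit3, Asns, Psat1, Sesn2 and Gdf15, the lowest CAPZ_KO library lay above the highest WT library, as in 22.1% of all genes tested. Ddit3, Psat1, Sesn2 and Gdf15 kept an adjusted p under 0.05 with any single library left out. Without CAPZ_KO 1 these 4 were the genes called, and Trib3, Asns and Fgf21 were not.

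**Figure D1:**
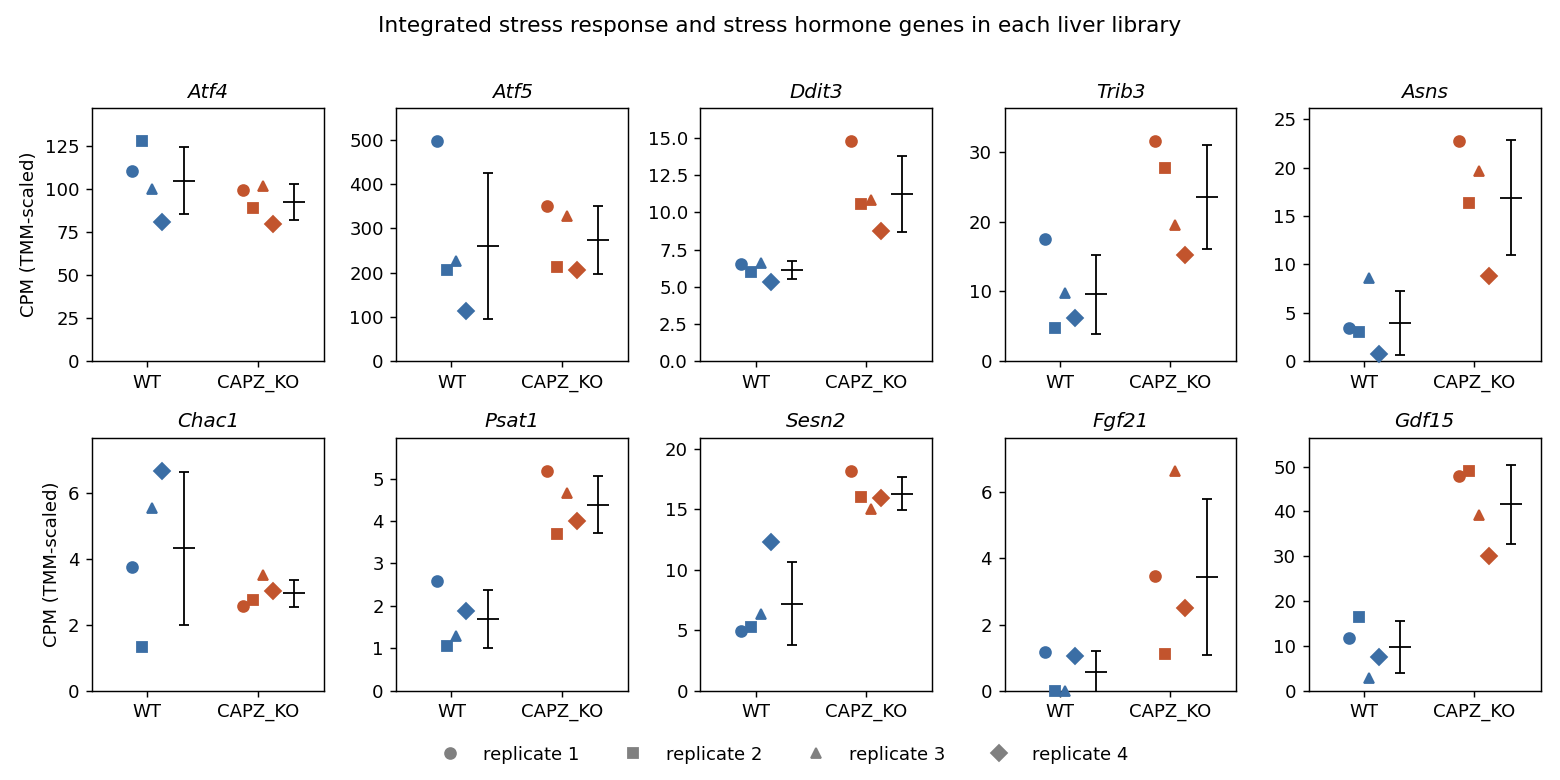
CPM after TMM scaling (vertical axes, each from 0) of the 10 genes in each WT and CAPZ_KO library, with 1 symbol per replicate number and the mean and SD of the 4 libraries in black. Gdf15 lies between 30.0 and 49.1 CPM in CAPZ_KO and at or below 16.5 in WT, while the groups overlap for Atf4, Atf5, Trib3, Chac1 and Fgf21.

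Atf4 (chr15:80255184-80257541, plus strand; all positions are GENCODE vM21 on GRCm38) encodes the transcription factor at the centre of the response. Its mRNA was at 111, 128, 99.6 and 81.0 CPM in WT 1 to 4 and at 99.4, 89.0, 102 and 79.4 in CAPZ_KO 1 to 4. The groups overlapped, and the lowest library of each was its replicate 4. The means were 105 ± 19.5 (SD, n = 4) and 92.4 ± 10.3 (SD, n = 4). On the log2 scale the difference was −0.18 ± 0.155 (SE) with an edgeR adjusted p of 0.378. Scaled by library sizes alone, Atf4 had 0.46 with an adjusted p of 0.0287, which is −0.17 relative to the shift of the median gene. The counts measure mRNA, so ATF4 protein and its translation were not measured.

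Atf5 (chr7:44812256-44816658, minus strand), a related factor under the same kind of translational control, was the gene with the widest spread in absolute level. It stood at 497, 206, 227 and 113 CPM in WT and at 351, 213, 328 and 205 in CAPZ_KO. The WT libraries spanned 4.40-fold and enclosed all 4 CAPZ_KO libraries. The test gave 0.073 ± 0.401 on the log2 scale (SE, edgeR adjusted p = 0.898), and the value lay between −0.19 and 0.58 when 1 library was left out. Exons of Atf5 overlap those of Nup62 and Il4i1 on the opposite strand. Il4i1 was close to 0 in these libraries, and Nup62, which was not called, had 13.6 ± 2.62 CPM in the WT libraries and 17.4 ± 2.39 in CAPZ_KO (both SD, n = 4).

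Ddit3 (chr10:127290774-127296288, plus strand) encodes CHOP, a factor that is induced when the stress response persists. Its levels were 6.54, 5.99, 6.60 and 5.32 CPM in WT and 14.8, 10.6, 10.8 and 8.74 in CAPZ_KO. WT libraries differed little, by 1.24-fold between the lowest and the highest, and every CAPZ_KO library lay above them. Ddit3 rose by 0.88 ± 0.189 (SE, edgeR adjusted p = 0.00441), the smallest of the 7 rises. Its exons overlap those of Mars on the opposite strand, within chr10:127296221-127296288. The mean of Mars was 65.3 ± 17.3 CPM for WT and 56.9 ± 3.003 for CAPZ_KO (SD, n = 4), and Mars was not called (adjusted p = 0.417). Whether reads were counted by strand is not given in the sources used here.

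Trib3 (chr2:152337422-152344032, minus strand), a pseudokinase that ATF4 induces and that dampens CHOP and ATF4 activity, held 17.5, 4.80, 9.79 and 6.22 CPM in WT. In CAPZ_KO it held 31.5, 27.7, 19.6 and 15.3. Only WT 1 and CAPZ_KO 4 crossed, since CAPZ_KO 4 lay below WT 1 and above the other WT libraries. Trib3 rose by 1.32 ± 0.391 (SE, edgeR adjusted p = 0.0228). The adjusted p was 0.0560 without WT 4, 0.0713 without CAPZ_KO 1 and 0.0668 without CAPZ_KO 2.

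Chac1 (chr2:119351229-119354381, plus strand), a glutathione-degrading enzyme that is among the most responsive ATF4 and CHOP targets in many cell types, did not pass the test. It was at 3.75, 1.32, 5.54 and 6.68 CPM in WT and at 2.57, 2.74, 3.51 and 3.02 in CAPZ_KO. The 4 CAPZ_KO libraries lay close together, inside the range of WT. On the log2 scale the difference was −0.55 ± 0.404 (SE, edgeR adjusted p = 0.298). Without WT 2, the lowest WT library, it was −0.87 with an adjusted p of 0.0252. With library sizes alone it was 0.061 (adjusted p = 0.905), which is −0.56 relative to the shift of the median gene. Chac1 was tested in the same fit as Asns and Trib3, and a difference between their fold changes was not tested.

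**Figure D2:**
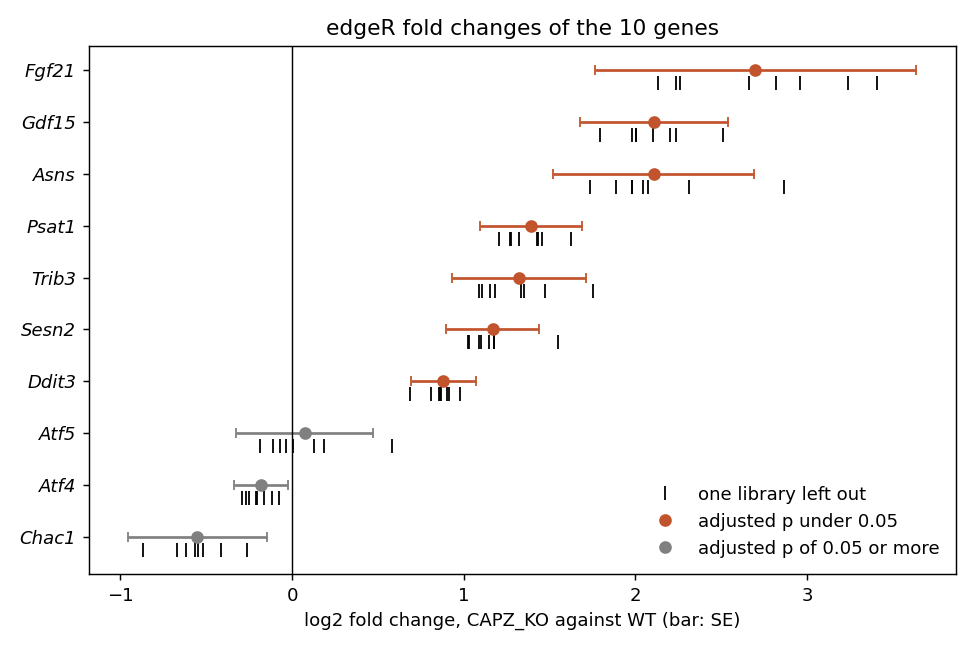
log2 fold changes of CAPZ_KO against WT (horizontal axis) with SE bars for the 10 genes, coloured where the edgeR adjusted p was under 0.05, and black ticks for the values with 1 library left out. Ticks of Ddit3 stay between 0.69 and 0.98, while those of Fgf21 run from 2.13 to 3.41 and those of Atf5 cross 0.

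Asns (chr6:7675169-7693254, minus strand), asparagine synthetase, converts aspartate to asparagine and is the classic gene of the amino acid response. It was scarce in WT, at 3.43, 2.96, 8.59 and 0.713 CPM, and stood at 22.7, 16.3, 19.7 and 8.85 in CAPZ_KO. Both groups were lowest in their replicate 4, the female libraries, and CAPZ_KO 4 was barely above WT 3. Asns rose by 2.11 ± 0.585 (SE, edgeR adjusted p = 0.0184), from 3.92 ± 3.33 to 16.9 ± 5.96 CPM (SD, n = 4). The adjusted p was 0.0541 without WT 2, 0.0516 without CAPZ_KO 1 and 0.0519 without CAPZ_KO 3, and the value was 2.86 without WT 3. With sex as a term in the fit it was 2.25 with an adjusted p of 0.00206.

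Psat1 (chr19:15904678-15947337, minus strand), phosphoserine aminotransferase, catalyses the middle step of serine synthesis. Its levels were low, 2.57, 1.05, 1.28 and 1.88 CPM in WT and 5.18, 3.69, 4.66 and 3.99 in CAPZ_KO. The groups did not overlap. Psat1 rose by 1.39 ± 0.295 (SE, edgeR adjusted p = 0.00408). The enzymes before and after it in the pathway were also higher. Phgdh, phosphoglycerate dehydrogenase, went from 0.627 ± 0.232 to 1.45 ± 0.587 CPM (SD, n = 4) and rose by 1.26 (adjusted p = 0.0255, and 0.0185 to 0.0836 over the fits without 1 library, with the call lost without WT 2, 3 or 4 or CAPZ_KO 1 or 3). Psph, phosphoserine phosphatase, went from 6.73 ± 2.09 to 11.8 ± 0.748 CPM (SD, n = 4) and rose by 0.83 (edgeR adjusted p = 0.00994).

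Sesn2 (chr4:132492032-132510501, minus strand) encodes sestrin 2, a stress-induced protein that senses leucine and restrains mTORC1, and that is known as a target of both ATF4 and p53. It was at 4.93, 5.26, 6.32 and 12.3 CPM in WT and at 18.2, 16.0, 14.998 and 16.0 in CAPZ_KO. CAPZ_KO libraries spanned 1.21-fold, the narrowest range of the 10 genes in that group, and WT 4 stood above the other WT libraries. Sesn2 rose by 1.17 ± 0.269 (SE, edgeR adjusted p = 0.00628), and by 1.55 without WT 4. Of its relatives, named after their values were seen, Sesn1 was not called (0.12, adjusted p = 0.667), and Sesn3 had 0.66 with an adjusted p of 0.0461 that exceeded 0.05 without any 1 library except WT 3 (up to 0.130).

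Gdf15 (chr8:70629393-70632456, minus strand), a secreted member of the TGF-beta family that lowers food intake, had the largest mean CPM among the 7 genes that rose. It was at 11.7, 16.5, 2.84 and 7.59 CPM in WT and at 47.9, 49.1, 39.3 and 30.0 in CAPZ_KO. WT libraries spanned 5.79-fold and the CAPZ_KO libraries 1.64-fold, and the lowest CAPZ_KO library was above the highest WT library. Gdf15 rose by 2.11 ± 0.431 (SE, edgeR adjusted p = 0.00405), from 9.64 ± 5.80 to 41.6 ± 8.88 CPM (SD, n = 4). With 1 library left out the value lay between 1.80 and 2.51. Its receptor GFRAL acts in the hindbrain. Gfral and its partner Ret are named after their values were seen. Gfral had 0 counts in all 8 liver libraries, and Ret had too few to be tested.

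Fgf21 (chr7:45613886-45615490, minus strand), the fasting and stress hormone of liver, had few or no counts in the WT libraries. It had 11, 0, 0 and 16 counts in WT 1 to 4 and 77, 22, 110 and 49 in CAPZ_KO 1 to 4. In CPM these are 1.18, 0, 0 and 1.04 in WT and 3.47, 1.10, 6.65 and 2.51 in CAPZ_KO. A count of 0 allows a level of up to 0.197 CPM in WT 2 and 0.213 in WT 3 (3 counts, counting error only). CAPZ_KO 2 lay between the WT libraries that held counts, and the other CAPZ_KO libraries lay above all of WT. Fgf21 rose by 2.70 ± 0.936 (SE), with an edgeR adjusted p of 0.0437. This call was the least stable of the 7. It was lost without WT 2 (0.0793), WT 3 (0.0776), CAPZ_KO 1 (0.0788), CAPZ_KO 3 (0.120) or CAPZ_KO 4 (0.0643), with no filter on low counts (0.0757), with sex as a term (0.0567) and by DESeq2 (0.115). limma-voom gave 0.0280, and without WT 4 the log2 fold change was 3.41.

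**Figure D3:**
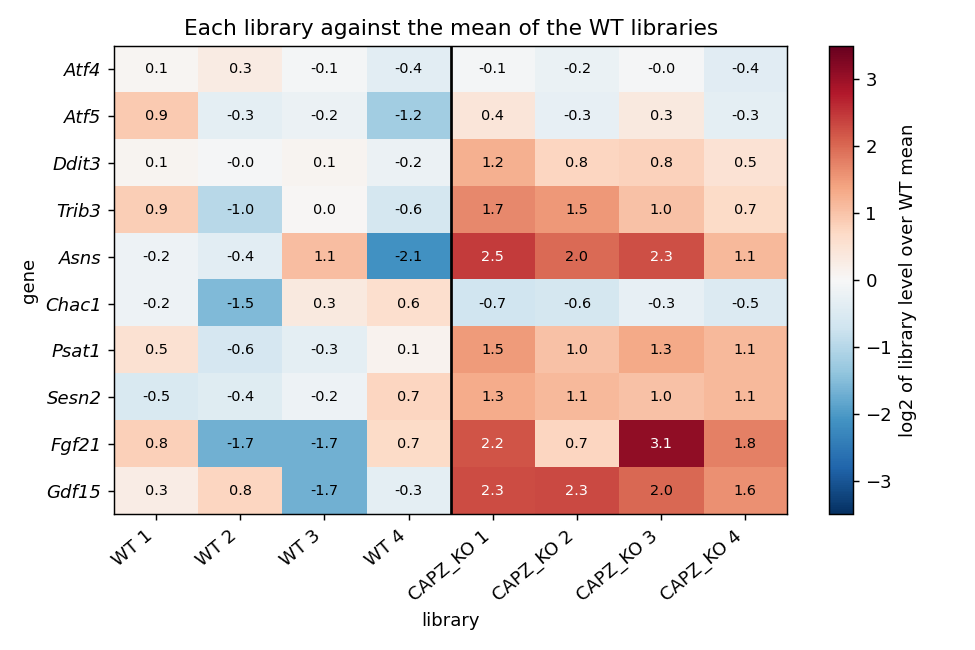
log2 of each library's level over the mean of the WT libraries, with 0.25 CPM added to both, for the 10 genes (rows) in the 8 libraries (columns), red above and blue below the WT mean. Of the 7 genes that rose, each CAPZ_KO library lies above the WT mean, while the Chac1 row is negative in all 4 CAPZ_KO libraries and positive in WT 3 and WT 4.

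The libraries of a group did not keep 1 order over the genes. CAPZ_KO 1 was the highest CAPZ_KO library for 6 of the 10 genes (Atf5, Ddit3, Trib3, Asns, Psat1 and Sesn2), and CAPZ_KO 4 was the lowest for 6 (Atf4, Atf5, Ddit3, Trib3, Asns and Gdf15) and the highest for 0. In WT, WT 1 was the highest for 4 genes, and WT 2 and WT 4 were each the lowest for 4. WT 4, the female control, was the lowest for Atf4, Atf5, Ddit3 and Asns, as CAPZ_KO 4 was in its group, but it was the highest WT library for Chac1 and Sesn2. The coefficient of variation ran from 9.78% (Ddit3) to 116% (Fgf21) in WT and from 8.22% (Sesn2) to 68.7% (Fgf21) in CAPZ_KO.

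Levels of different genes were compared as CPM per kb of exon, with exon lengths from GENCODE vM21. Ddit3 has 2 entries there, and the one with more exon bases was used. In WT the order was Atf5 (131 ± 82.8), Atf4 (44.4 ± 8.29), Gdf15 (5.21 ± 3.13), Trib3 (4.51 ± 2.67), Ddit3 (3.57 ± 0.349), Chac1 (2.64 ± 1.43), Sesn2 (2.07 ± 0.986), Asns (1.43 ± 1.22), Fgf21 (0.583 ± 0.676) and Psat1 (0.399 ± 0.160), all SD with n = 4. The ranges of Atf5 and Atf4 did not overlap, nor did those of Atf4 and Gdf15, and every later pair of neighbours overlapped. In CAPZ_KO, Gdf15 came next after Atf4 at 22.4 ± 4.80 CPM per kb, apart from Atf4 (39.2 ± 4.37) and from Trib3 below it (11.1 ± 3.49). Chac1 was ninth there at 1.81 ± 0.251, apart from Psat1 (1.03 ± 0.158) and overlapping with Fgf21 (3.61 ± 2.48).

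**Figure D4:**
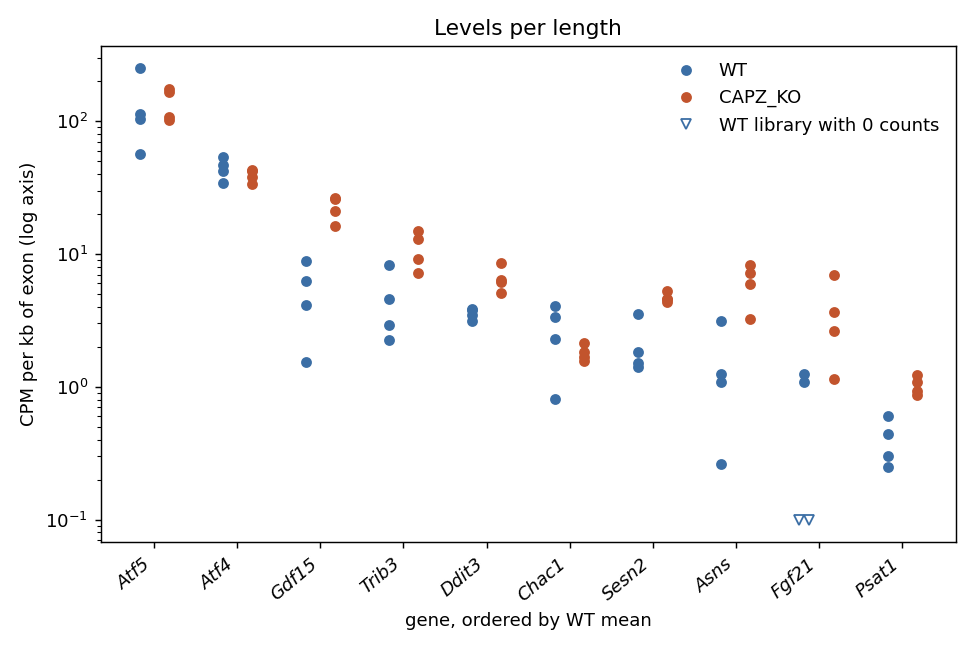
CPM per kb of exon on a log axis for the 10 genes, ordered by their WT mean, with 1 point per library and open triangles at the foot for the 2 WT libraries in which Fgf21 had 0 counts. Atf5 and Atf4 stay above the other genes in both groups, and Gdf15 is the next in CAPZ_KO.

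Of 14 genes for eIF2 kinases, phosphatase subunits, eIF2 and its exchange factor eIF2B, 2 rose, 3 fell and 9 did not pass (median −0.031, against −0.0029 over all genes tested). Over all genes tested, 22.4% were higher and 19% lower. Among the 14, 10 were higher and 1 lower with library sizes alone. Eif2ak3, which encodes the kinase PERK of the endoplasmic reticulum, rose by 1.23 ± 0.192 (SE, edgeR adjusted p = 7.49e-04). Its mean went from 18.9 ± 3.52 to 44.6 ± 9.70 CPM (SD, n = 4). Eif2ak1, the heme-regulated kinase, fell by 0.36, although it had 0.26 with library sizes alone. Ppp1r15b, the constitutive phosphatase subunit, fell by 1.02 from 164 ± 29.5 to 81.0 ± 5.70 CPM (SD, n = 4). Eif2s1, eIF2 alpha, rose by 0.34, and Eif2b1, an eIF2B subunit, fell by 0.39, although it had 0.23 with library sizes alone. The adjusted p of Eif2s1 exceeded 0.05 without any 1 library but WT 3 (up to 0.166), and that of Eif2b1 without WT 3 or CAPZ_KO 1 or 2 (up to 0.0682). Ppp1r15a, the stress-induced phosphatase subunit GADD34 and an ATF4 target, had 0.18 with an adjusted p of 0.488, chosen after its values were seen.

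Of 11 other tested regulators that depend on ATF4 or act with it, or are relatives of the 10 genes, 4 rose and 2 fell (median 0.29), against 22.4% higher and 19% lower over all genes tested. Atf3, a stress-induced factor of the same family, had 2.46 ± 1.46 CPM in WT and 25.1 ± 6.37 in CAPZ_KO (each SD, n = 4), a rise of 3.32. Nupr1, a stress-induced nuclear protein, rose by 1.76. Jdp2 had 0.91 with an adjusted p of 0.0403 that exceeded 0.05 without any 1 library but CAPZ_KO 2 (up to 0.109), and Sesn3 is given above. Cebpb, a bZIP partner of ATF4, fell by 1.14, and Chac2, the constitutive relative of Chac1, fell by 1.23 from 31.1 ± 7.48 to 13.2 ± 3.05 CPM (SD, n = 4). Both had adjusted p of 0.00264 or less by edgeR.

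Of 12 genes of serine, proline and one-carbon synthesis, 6 rose and 3 fell (median 0.91). Of all genes tested, 22.4% rose and 19% fell. Aldh18a1 and Pycr1, of proline synthesis, rose by 2.71 and 2.68, from 2.25 ± 0.620 to 14.7 ± 4.88 and from 0.198 ± 0.135 to 1.34 ± 0.473 CPM (SD, n = 4). Mthfd2 and Mthfd1l, mitochondrial folate enzymes, rose by 2.12 and 2.25, and Mthfd1l had 2.89 without WT 4. Shmt1 and Shmt2, which interconvert serine and glycine, and Cbs, of transsulfuration, fell by 1.29, 0.83 and 1.52, with WT levels of 226 ± 19.5, 260 ± 22.8 and 607 ± 231 CPM (SD, n = 4). In the same libraries 9 of 10 hepatocyte markers were lower.

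Among 8 tested amino acid transporters, 3 rose and 1 fell (median 0.27), against 22.4% higher and 19% lower over all genes tested. Slc38a2, a neutral amino acid carrier, fell by 1.74. Slc1a4 rose by 2.48 and Slc7a1, the cationic carrier, by 1.65. Slc7a11, the cystine carrier, had a single count in WT, in library 4, against 406, 171, 90 and 17 in CAPZ_KO 1 to 4. The ratio of CAPZ_KO to WT was 472 with a 95% counting interval from 84.4 to 18656, which covers counting error only. Its fitted log2 fold change, which depends on the prior count, was 8.32, and 7.53 without CAPZ_KO 1 and 10.12 without WT 4. Of 20 cytosolic aminoacyl-tRNA synthetases, 3 rose, 3 fell and 14 did not pass (median −0.067), against 22.4% higher and 19% lower over all genes tested, while 16 were higher and 0 lower with library sizes alone. Gars and Vars, for glycine and valine, rose by 1.18 and 0.78. Wars, for tryptophan, had 0.46 (adjusted p = 0.0444), with the call lost without any 1 library but WT 1 or CAPZ_KO 4 (up to 0.154). Tars, Farsb and Dars were called lower at adjusted p of 0.0358, 0.0395 and 0.0421, although Farsb and Dars had 0.24 and 0.30 with library sizes alone. Without 1 library the 3 reached 0.0874, 0.0859 and 0.112, losing the call without WT 1 or 3 or CAPZ_KO 2, 3 or 4 (Tars), WT 1 or 3 or CAPZ_KO 1, 2 or 4 (Farsb) and WT 3 or 4 or CAPZ_KO 2, 3 or 4 (Dars).

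Of 15 genes of the endoplasmic reticulum chaperones and of the XBP1 and ATF6 arms, 0 rose, 5 fell and 10 did not pass. Of all genes tested, 22.4% rose and 19% fell. All 15 had negative values (median −0.60). With library sizes alone, however, the median was 0.030, or −0.59 relative to the median gene, with 10 positive and 1 lower. Herpud1 fell by 1.56, Dnajc3 by 0.82, Dnajb9 by 0.79 and Hsp90b1 by 0.73. Edem1 fell by 0.60, although it had 0.030 with library sizes alone. The call of Hsp90b1 was lost without WT 1 or 3 or CAPZ_KO 2, 3 or 4 (adjusted p up to 0.0836). Hspa5, the chaperone BiP, is named after its values were seen. It stood at 927 ± 350 CPM and 805 ± 187 (SD, n = 4) and was not called (edgeR adjusted p = 0.613). Of 8 tested mitochondrial chaperones and proteases, 0 rose and Hspd1, Hspe1, Dnaja3, Hspa9 and Clpp fell, by 0.52 to 0.92 (median −0.52). The same shares over all genes tested, 22.4% and 19%, stand against these counts. With library sizes alone, however, the median was 0.10, or −0.52 relative to the median gene, with 2 higher and 0 lower. Dnaja3 and Hspa9 then had 0.10 and 0.099.

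**Figure D5:**
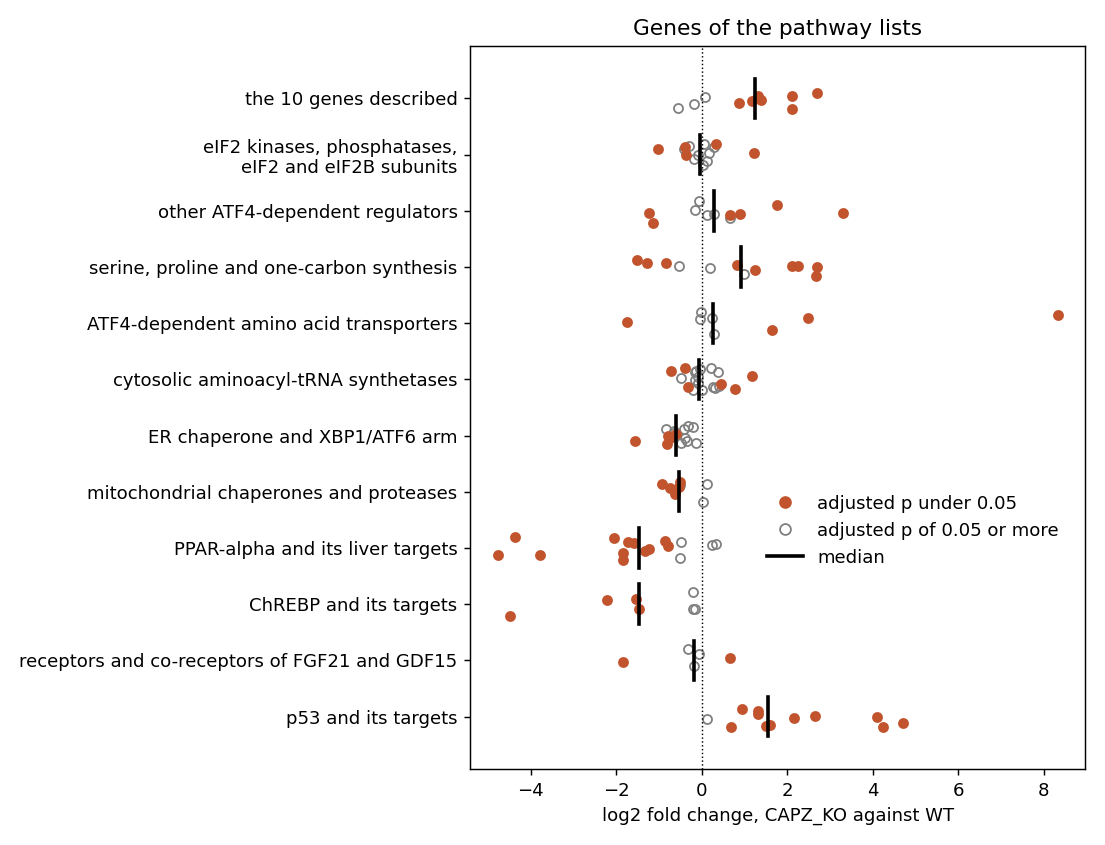
log2 fold changes of CAPZ_KO against WT (horizontal axis) for the 10 genes and for the tested genes of 11 related lists, filled where the edgeR adjusted p was under 0.05, with black bars at the medians. The median of the 10 genes is 1.24, and those of the endoplasmic reticulum, PPAR-alpha and ChREBP lists are −0.60, −1.46 and −1.46; the point at 8.32 is Slc7a11, whose fitted value depends on the prior count because WT held 1 count.

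Fgf21 is also known as a target of PPAR-alpha, the fatty acid receptor of fasting, and of the carbohydrate-responsive factor ChREBP, whose part in its level here was not tested. Of 16 genes of PPAR-alpha and its targets, 12 fell and 0 rose (median −1.46). Of all genes tested, 19% fell and 22.4% rose. Ppara itself fell by 2.04 from 349 ± 125 to 84.7 ± 32.4 CPM (SD, n = 4), and Fabp1, the liver fatty acid binding protein, fell by 3.79. Of 7 genes of ChREBP and its targets, 4 fell and 0 rose (median −1.46), against the same shares over all genes tested. Mlxipl, the gene of ChREBP, fell by 2.22. Klb, the co-receptor that FGF21 needs, fell by 1.84 from 36.9 ± 11.2 to 10.3 ± 1.09 CPM (SD, n = 4), while Fgfr1 rose by 0.66 and Fgfr2, Fgfr3 and Fgfr4, named after their values were seen, were not called. These falls accompanied those of the hepatocyte markers (9 of 10 lower) and were not tested apart from them.

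Gdf15 and Sesn2 are also known as targets of p53, whose part in their levels here was not tested. Of 12 tested genes of p53 and its targets, 11 rose and 0 fell (median 1.55). Of all genes tested, 22.4% rose and 19% fell. Phlda3, Plk2 and Zmat3 rose by 4.23, 2.64 and 2.17. Cdkn1a, a cell cycle inhibitor, is named after its values were seen. Its mean was 5.75 ± 4.90 CPM in WT and 145.9 ± 28.0 in CAPZ_KO (each SD, n = 4). The rise was 4.71, and 5.33 without WT 1. The call of Bbc3, an apoptosis gene chosen after its values were seen (adjusted p = 0.0479), was lost without WT 3 or 4 or any CAPZ_KO library (up to 0.140).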

How the data were processed

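Libraries were built from poly(A) RNA of perfused liver with a strand-marking kit, per the labels' protocols. What the authors deposited are unnormalized counts of reads for each gene symbol in 8 libraries. The submitters' processing notes name the build mm10 and, with no roles, featureCounts, edgeR, R 3.3.1, STAR 2.5.3a and bcl2fastq. Not given in the sources used here are the strand setting, the annotation and how shared reads were treated. All 24421 symbols entered 1 fit. Genes were kept by filterByExpr of edgeR 4.0.16 (minimum count 10, minimum total 15), which removed 0.0451% to 0.109% of a library's counts and left 12985. Counts were scaled by TMM (factors 0.774 to 0.847 in WT, 1.18 to 1.33 in CAPZ_KO) and tested by edgeR's quasi-likelihood test with robust dispersion, no covariate and Benjamini-Hochberg adjustment over all tested genes at 0.05 (R 4.3.3). Every adjusted p is from edgeR unless another tool is named, and every n = 4 counts libraries. CPM are these counts per 1000000 counts of the TMM-scaled library. The test was checked on simulated counts in which few genes differed, in both directions. That check therefore does not cover the scaling between groups that differ in many genes. Alternatives used limma 3.58.1 (voom), DESeq2 1.42.0, other scalings and filters, a threshold of 0.01, a replicate block, sex as a term and each library left out. No 2 libraries of one group were duplicates (chi-square per degree of freedom of 26.4 or more). Members and gene lists were chosen with earlier results of these data known. Named genes are the 10 members, Capzb and, of each list, up to 6 called genes with the smallest p in the main direction and up to 4 in the other. Other list genes, such as Fgfr2, Fgfr3, Fgfr4, Gfral and Ret, are named as chosen after their values were seen. Some genes that this would name are not reported here. Dele1, Tp53inp1 and Ly6g of the lists were not found under those symbols.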

Additional observations from a re-analysis of the deposited data

How the results depend on the processing

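Scaling by library sizes alone gave 7665 higher and 700 lower genes and a threshold of 0.01 gave 1864 and 1439, against 2913 and 2469 as reported, and 2371 to 2964 and 2100 to 2658 with 1 library left out. Of the 10 genes, 4 were higher at 0.01, and 4 to 7 were higher and 0 to 1 lower when 1 library was left out (4 without CAPZ_KO 1, and Chac1 lower without WT 2). Library sizes alone turned Atf4 to 0.46 and Chac1 to 0.061, or −0.17 and −0.56 relative to the shift of the median gene. Capzb then had −0.10 (adjusted p = 0.442), or −0.73 relative to that shift. Atf5 ran from −0.19 to 0.58 with 1 library left out, and was −0.066 without both female libraries, an alternative chosen after the data were seen, in which 6 of the 10 genes were higher. The replicate block gave 7 higher of the 10 genes and 2974 genes higher and 2411 lower in all. Same-numbered libraries share only a number in the labels, and those numbered 4 were also both read as female. Their deviations from the group means correlated at 0.244, 0.0089, 0.066 and 0.303 for numbers 1 to 4 (across genes, which are not independent replicates), and each other's best match were the libraries numbered 1 and those numbered 4 but not those numbered 2 or 3. Without any filter 6 of the 10 genes were higher. No called gene of the 10 changed direction under any alternative run. Fgf21 had 0 counts in WT 2 and WT 3, libraries of 18916315 and 17663404 counts. It had 11 in WT 1, a library of 12060350.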
